A study of Mus musculus with 18 samples.

Results

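The genes described here carry out antigen presentation by major histocompatibility complex (MHC) class I: the heavy chains H2-K1 and H2-D1, the light chain B2m, the peptide transporter subunits Tap1 and Tap2, the transporter's bridge tapasin (Tapbp), and the immunoproteasome subunits Psmb8, Psmb9 and Psmb10. They were taken as every probe set whose single gene symbol in the platform annotation is one of these 9 genes, which gave 16 of the 12488 probe sets on the array, for 9 of its 8251 genes with a symbol of their own. H2-K1, H2-D1 and Tapbp had 3 probe sets each, Tap1 had 2 and the other genes had 1. A further 3 probe sets list one of these genes among several symbols and were not used. Of the 16 probe sets, 14 passed the filter on dim probe sets (a mean signal of at least 118.6 over all arrays), and all 9 genes kept at least 1.

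The RNA came from kidneys of 18 C57 mice, with 1 Affymetrix array per mouse. The groups are 6 Aprt KO mice and 6 control littermates at 7 days, and 3 Aprt KO mice and 3 control littermates at 1 month. The 7-day groups hold 3 males and 3 females each, and the 1-month groups hold 2 males and 1 female each. Aprt encodes adenine phosphoribosyltransferase, an enzyme of purine salvage whose loss leads to crystals of an adenine product in the kidney, and the study set out to compare the response of kidneys at both ages. The series text calls the mice newly born and adult and the controls Aprt+/+, and how the Aprt allele was made is not given in the sources used here. The littermates form 9 pairs of 1 sex each.

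Class I molecules show peptides from inside the cell to CD8 T cells. The proteasome makes the peptides, the transporter moves them into the endoplasmic reticulum, tapasin holds an empty heavy chain and B2m next to the transporter, and the loaded complex goes to the cell surface. Interferon gamma raises the whole set, and the 3 immunoproteasome subunits then take the places of the standard subunits Psmb5, Psmb6 and Psmb7 in newly built proteasomes. Healthy tubule cells carry little class I, while leukocytes carry much, so the level in a kidney depends on both.

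In the mouse, 7 of the 9 genes lie on chromosome 17 in the MHC region, while B2m is on chromosome 2 and Psmb10 on chromosome 8. Tap1 and Psmb9 start 226 bases apart on opposite strands, so they share a promoter region, and Psmb8 and Tap2 follow Tap1 in that cluster. Promoter windows from RefSeq on GRCm38.p6, from 250 bases before to 50 bases after a transcript start, were found for 8 of the 9 genes (9 windows, with 2 for H2-K1). The windows of 5 genes are shown. For each of them, 1 control array at 7 days read more than 2-fold the mean of the other controls. This also held for Psmb9, Psmb10 and the brightest Tapbp probe set, so it does not set the 5 genes apart. Capitals mark matches, on either strand, to the interferon regulatory factor motif AANNGAAA, the NF-kB motif GGGNNTTNC and the TGACG half-site, which is part of the X box of class I promoters.
H2-K1 (chr17:34000298-34000597, minus strand): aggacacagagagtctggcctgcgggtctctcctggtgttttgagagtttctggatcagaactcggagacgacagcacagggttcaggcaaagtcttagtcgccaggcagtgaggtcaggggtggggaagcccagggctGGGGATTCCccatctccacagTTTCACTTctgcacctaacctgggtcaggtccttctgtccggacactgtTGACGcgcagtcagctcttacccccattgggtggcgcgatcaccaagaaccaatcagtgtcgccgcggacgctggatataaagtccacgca
H2-D1 (chr17:35262844-35263143, plus strand): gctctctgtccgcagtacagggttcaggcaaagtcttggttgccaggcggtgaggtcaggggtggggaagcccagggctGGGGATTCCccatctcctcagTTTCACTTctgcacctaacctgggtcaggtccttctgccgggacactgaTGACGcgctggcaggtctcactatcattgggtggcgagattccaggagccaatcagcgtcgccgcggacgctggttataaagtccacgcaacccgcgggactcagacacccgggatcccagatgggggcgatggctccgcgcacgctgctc
B2m (chr2:122147437-122147736, plus strand): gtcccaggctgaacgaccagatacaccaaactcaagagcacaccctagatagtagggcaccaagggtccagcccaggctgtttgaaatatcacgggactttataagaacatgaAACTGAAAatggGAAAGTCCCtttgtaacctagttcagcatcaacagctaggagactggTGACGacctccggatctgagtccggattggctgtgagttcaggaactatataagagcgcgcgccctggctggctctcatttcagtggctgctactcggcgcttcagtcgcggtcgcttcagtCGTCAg
Tap1 (chr17:34187306-34187605, plus strand): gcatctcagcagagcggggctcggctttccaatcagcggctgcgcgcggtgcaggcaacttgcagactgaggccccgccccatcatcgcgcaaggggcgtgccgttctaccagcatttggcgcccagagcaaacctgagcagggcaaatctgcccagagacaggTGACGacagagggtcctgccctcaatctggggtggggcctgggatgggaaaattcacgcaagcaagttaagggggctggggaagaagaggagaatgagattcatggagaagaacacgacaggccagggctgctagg
Psmb8 (chr17:34197945-34198244, plus strand): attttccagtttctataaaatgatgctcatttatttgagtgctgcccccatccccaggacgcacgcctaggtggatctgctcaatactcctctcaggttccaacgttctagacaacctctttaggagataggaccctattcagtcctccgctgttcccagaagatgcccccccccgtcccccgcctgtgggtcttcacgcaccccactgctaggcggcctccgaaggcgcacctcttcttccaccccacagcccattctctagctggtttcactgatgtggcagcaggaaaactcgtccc
The windows of H2-K1 and H2-D1 hold the same NF-kB and interferon regulatory factor matches in the same order, followed by the half-site. In the H2-K1 window these matches begin at -111, -90 and -41, and in the H2-D1 window at -171, -150 and -101, counted from the annotated start as 0. B2m holds the interferon regulatory factor match at -137, the NF-kB match at -125 on the other strand and half-sites at -78 and 44. The Tap1 window holds only the half-site among the 3 motifs in capitals, at -86, and 275 of its 300 bases also lie in the Psmb9 window. The Psmb8 window holds none of these 3 motifs. Among the genes whose windows are not shown, Psmb9 has the half-site, and Tapbp and Psmb10 have none of these 3 motifs. Over the 9 windows, the interferon regulatory factor motif was in 4 (23.9% of all 32851 promoter windows searched). The NF-kB motif was in 4 (15.2%), the half-site in 6 (20.8%) and the inverted CCAAT box ATTGG in 7 (37.4%). The STAT (GAS) motif TTCNNNGAA was in 1, that of Psmb8 (8.3%). The 2 H2-K1 windows overlap, as do those of Tap1 and Psmb9, so the 9 windows are not separate observations and enrichment was not tested. The motifs were chosen after the sequences were seen, and a match describes letters only.

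The values are signals on a linear scale as deposited. The fit was limma on log2(signal + 29), with a mean for each of the 4 groups and a sex term per age, and a probe set was called at an adjusted p (Benjamini-Hochberg over the 7464 probe sets past the filter) under 0.05. Median signals ran between 160.1 and 216.4 over the 18 arrays. The summed signal of 8 kidney tubule and podocyte markers lay between 26725 and 40512 in 7-day KO, 34642 and 52389 in 7-day control, 58246 and 77527 in 1-month KO and 54436 and 83141 in 1-month control kidneys. The Aprt signal went against the label on 4 arrays: it was high on the arrays labelled 7-day KO 4 (135.4) and 1-month KO 1 (86.5) and low on the arrays labelled 7-day control 1 (66.3) and 2 (51.3), set against midpoints of 97.8 at 7 days and 82.9 at 1 month. The groups are those of the labels, and the counts without these 4 arrays are given beside the genotype results. Of the 6 heavy-chain probe sets, 5 have names ending in _f_at, the maker's mark for probes shared within a gene family, so their signal cannot be assigned to 1 class I gene. In whole-kidney RNA, fewer cells of a type and less RNA per cell cannot be told apart.

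One array stood apart from all others for these genes and has to be described before any comparison. The array of 7-day control 3, a female, is set against the others over the 13 probe sets whose mean over the other 17 arrays passed the filter value, since Psmb9 passed it only through this array. It had the highest signal of all 18 arrays for 11 of the 13, and it lay above every 7-day KO array for 12. For 10 of the 13 it was more than 2-fold the mean of the other 5 controls of that age, against 1.5% of all probe sets chosen the same way. These 2-fold cases covered the 6 heavy- and light-chain probe sets, Psmb8 and Psmb10, but only 2 of the 5 transporter and tapasin probe sets. Psmb8, the subunit that replaces Psmb5, read 2727 on this array, against 262.7 to 356.5 on the other 5 controls. Psmb9, which replaces Psmb6, read 1052, against 27.4 to 108.0 on the other 5. Tap1 read 1073 with 103035_at, against 232.0 to 281.1. No other array came close to these 3 values.

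The heavy and light chains showed the same array. H2-K1 (93120_f_at) read 8841 on 7-day control 3, against 2299 to 2990 on the other 5 controls. H2-D1 (97540_f_at) read 7283, against 1854 to 2869. B2m read 14692, against 3362 to 5508. The ratio to the mean of the other 5 controls was 3.51 for H2-K1, 3.28 for H2-D1, 3.53 for B2m, 9.25 for Psmb8, 15.2 for Psmb9 and 4.39 for Tap1. Tapbp (100154_at), Psmb10 and Tap2 had smaller ratios, at 2.45, 2.39 and 1.82. The other Tapbp probe sets past the filter, 162104_f_at and 102689_at, had ratios of 1.32 and 0.904, inside the range of their group.

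**Figure D1:**
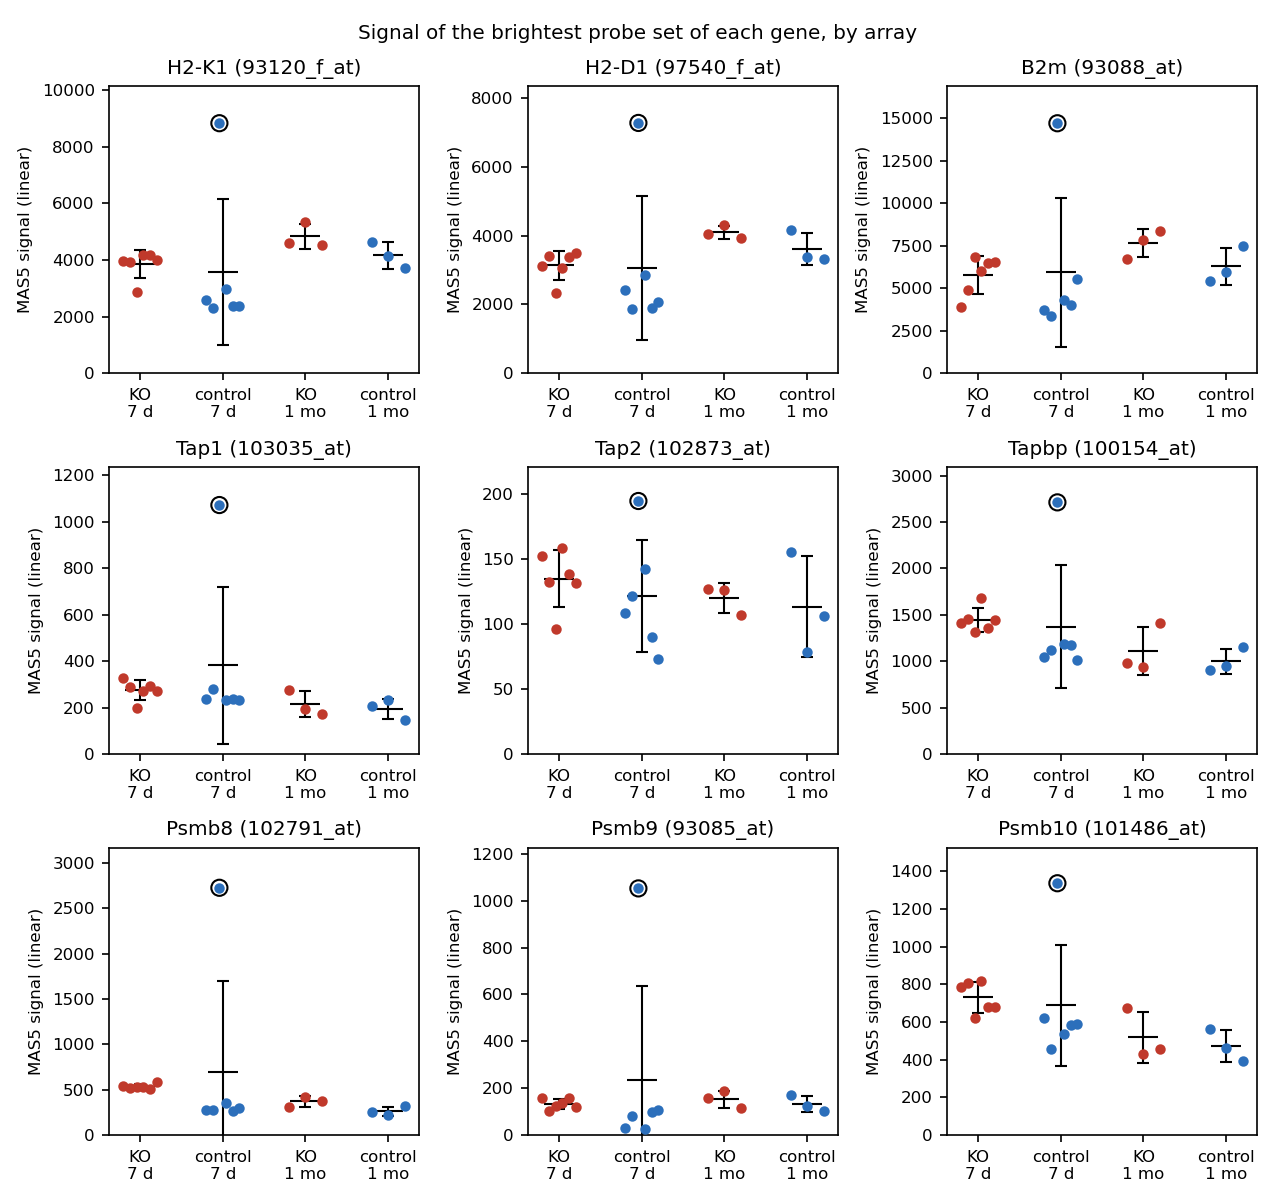
Signals (linear scale, 1 point per array) of the brightest probe set of each of the 9 genes in the 4 groups, with the group mean and SD as lines (SD bars that would pass below 0 are cut at 0). The circled point is 7-day control 3, which tops every panel, for example at 2727 for Psmb8 where the 7-day KO arrays lie between 512.5 and 581.2.

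Genes outside antigen presentation that interferons induce were high on the same array. Of 19 such genes on the array, 18 were above every other 7-day control on 7-day control 3. Over the 8 whose mean on the other 17 arrays passed the filter value, 5 were more than 2-fold the mean of the other controls, with a median ratio of 2.27. The filter over 18 arrays let in 3 more through this array alone, Iigp1, Gbp2 and Igtp. Iigp1, a GTPase induced by interferon gamma, read 4594, against 19.9 to 59.4 on the other 5 controls. The guanylate-binding proteins Gbp2 and Gbp3 read 813.7 and 1269, against 75.0 to 119.6 and 131.0 to 214.5. Ifng itself was dim on this array, at 5.33, against 0.991 to 9.31 on the other controls, and its probe set did not pass the filter. The median ratio was 1.02 for the 8 endothelial markers and 0.927 for the 8 kidney markers. Of leukocyte markers, 6 of 6 were above every other 7-day control, with a summed signal of 2069, against 901.9 to 1301 on the other 5. Of macrophage and monocyte markers, 8 of 13 were above every other control, with a sum of 5088, against 3128 to 3692. Over all probe sets past the filter, 1798 of 7464 were above every other 7-day control. T and NK cell markers summed to 527.1, against 305.2 to 496.1. Of these 11 markers, 3 were above every other 7-day control, with a median ratio of 1.09. Most are dim: only 1 of the 11 passed the filter, with a ratio of 0.824. The part of these cell types in the class I signal of this array was not tested. Its littermate, 7-day KO 3, shared its raised 3' to 5' ratios of Gapdh (1.15 and 1.16, against 0.680 to 1.02 on the other 16 arrays) but not its class I signal.

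**Figure D2:**
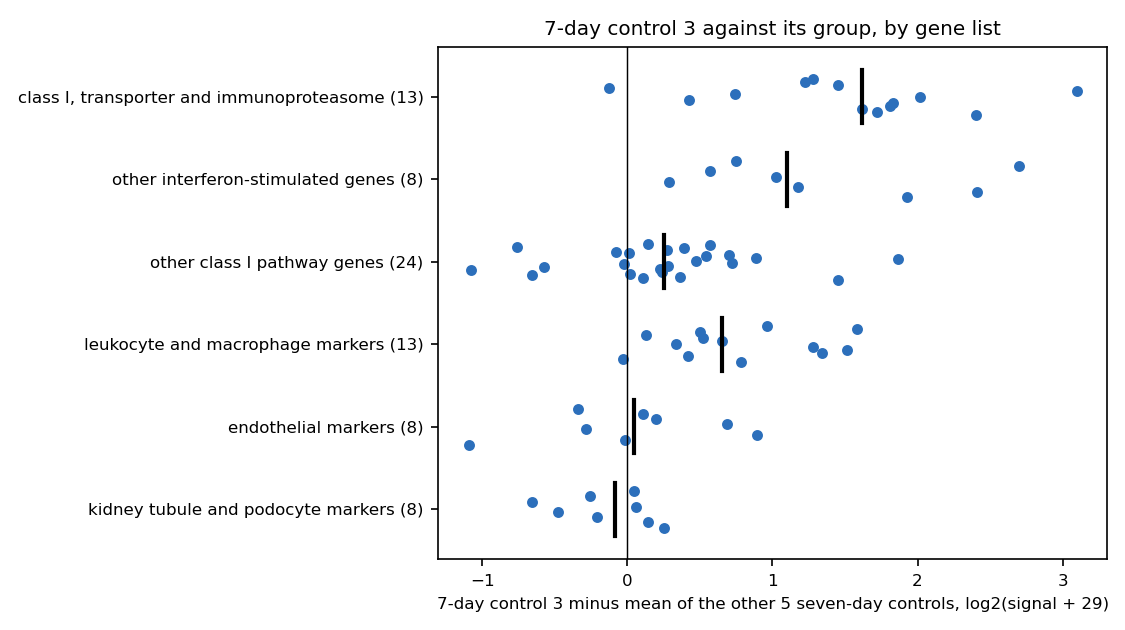
Difference between 7-day control 3 and the mean of the other 5 controls of that age on the log2(signal + 29) scale, 1 point per probe set whose mean over the other 17 arrays passed the filter value, with the number of probe sets in brackets and the median of each list as a bar. Of the 13 class I probe sets 10 are more than 2-fold on the linear scale and lie to the right, with the interferon-stimulated genes, while endothelial and kidney markers centre near 0.

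In 7-day kidneys, no class I gene was called between Aprt KO and control with all arrays, and leaving out 7-day control 3 changed that. With all arrays, limma called 0 of the 14 probe sets (204 of 7464, or 2.73%, were called over all genes), and 0 had an unadjusted p under 0.05. Their log2 fold changes ran between -0.19 and 0.30, with a median of 0.16 beside -0.02 over all probe sets tested. Without 7-day control 3, 4 of 14 were called, all higher in KO (2.52% of all probe sets were called higher and 3.12% in either direction), and 10 had an unadjusted p under 0.05. The median log2 fold change of the 14 was then 0.39, beside -0.01 over all. The array was singled out by the values of these same genes, so these calls are not independent evidence of a difference. No group of arrays was separated completely for any member with all arrays (1.97% of all probe sets were higher on every KO array and 0.523% lower). With that array left out, Psmb8 and Tapbp (100154_at) were higher on every KO array, 2 of 14 (2.89% of all probe sets), and 0 were lower on every one (1.19%).

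**Figure D3:**
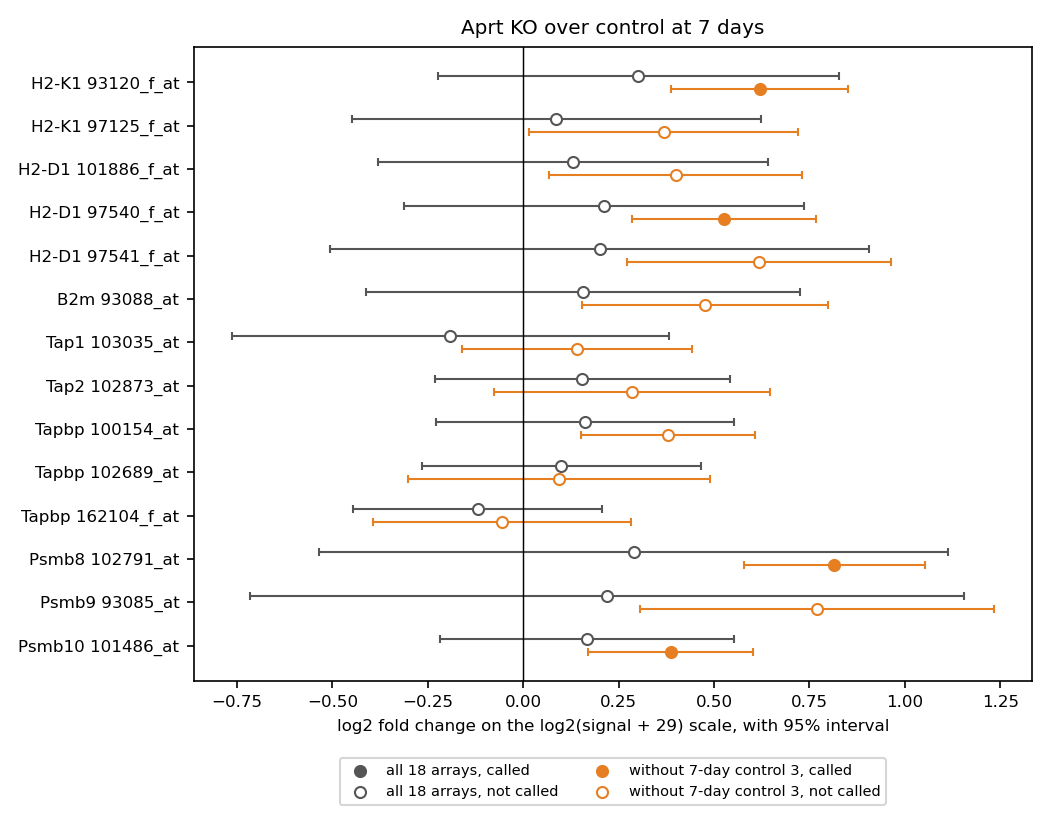
Log2 fold changes of Aprt KO over control at 7 days with 95% intervals from limma, for the 14 probe sets past the filter, with all 18 arrays (grey) and without 7-day control 3 (orange). Filled points mark adjusted p under 0.05: there are none in grey and 4 in orange (H2-K1 93120_f_at, H2-D1 97540_f_at, Psmb8 and Psmb10).

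Among the heavy chains, which bind the peptide, H2-K1 (93120_f_at) read 2871, 3982 and 4172 in 7-day KO kidneys (lowest, median and highest of 6), against 2299, 2465 and 8841 in 7-day control kidneys. The median was higher in KO, and the ranges overlapped through 7-day KO 3, the lowest of its group, and through 7-day control 3. With all arrays the log2 fold change was 0.30 (SE 0.25, limma adjusted p = 0.913). Leaving out 7-day control 3 gave 0.62 (SE 0.11, adjusted p = 0.00251), a 1.54-fold higher signal. The second H2-K1 probe set, 97125_f_at, read 395.6, 603.4 and 811.5 in KO kidneys, against 377.5, 455.9 and 1407 in control kidneys. Its log2 fold change was 0.37 without the array (limma adjusted p = 0.424).

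H2-D1 (97540_f_at) read 2335, 3256 and 3493 in 7-day KO kidneys, against 1854, 2242 and 7283 in control kidneys. Here too the KO median was higher and the ranges overlapped. The log2 fold change was 0.21 (SE 0.25, limma adjusted p = 0.995) with all arrays and 0.53 (SE 0.11, adjusted p = 0.0132) without 7-day control 3. The dim probe set 97541_f_at read 163.1, 198.1 and 215.4 in KO kidneys, against 73.2, 123.8 and 748.5 in control kidneys, and just missed the threshold without the array (log2 fold change 0.62, limma adjusted p = 0.0502). The third, 101886_f_at, read 1476, 3057 and 3411 in KO kidneys, against 1973, 2127 and 5888 in control kidneys. It had a log2 fold change of 0.40 without that array (limma adjusted p = 0.278). Its lowest KO value was again 7-day KO 3. When the whole littermate pair 3 was left out, limma also called this probe set, at a log2 fold change of 0.55 (adjusted p = 0.00168). That pair was singled out by the values of these same genes.

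B2m, the light chain that every class I molecule needs, read 3904, 6239 and 6843 in 7-day KO kidneys, against 3362, 4127 and 14692 in control kidneys. The ranges overlapped on both sides. The log2 fold change was 0.16 (SE 0.27) with all arrays and 0.48 (SE 0.15, limma adjusted p = 0.133) without 7-day control 3, with an interval from 0.15 to 0.80.

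For the transporter and its bridge, Tap1 (103035_at) read 198.7, 281.0 and 329.3 in 7-day KO kidneys, against 232.0, 237.6 and 1073 in control kidneys. It was the one gene with a negative estimate by its brightest probe set with all arrays, at a log2 fold change of -0.19 (interval from -0.76 to 0.38). The estimate was 0.14 without 7-day control 3 (interval from -0.16 to 0.44, limma adjusted p = 0.929). Tap2, the partner subunit, read 95.9, 135.5 and 158.3 in KO kidneys, against 72.9, 115.1 and 194.5 in control kidneys, and did not pass in either fit (log2 fold changes of 0.16 and 0.29). Tapbp (100154_at) read 1319, 1424 and 1679 in KO kidneys, against 1008, 1145 and 2711 in control kidneys. Every KO value was above the other 5 controls, which ended at 1184. Its log2 fold change was 0.16 with all arrays and 0.38 without 7-day control 3 (interval from 0.15 to 0.61, limma adjusted p = 0.0705). The other Tapbp probe sets did not show this: 102689_at read 353.5, 706.3 and 931.8 in KO kidneys, against 495.2, 591.4 and 707.6 in control kidneys, and 162104_f_at read 365.3, 512.1 and 556.8, against 385.3, 515.2 and 761.3. Their log2 fold changes without that array were 0.09 and -0.06.

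Of the immunoproteasome subunits, Psmb8 was separated between the groups once 7-day control 3 was left out, and Psmb9 and Psmb10 overlapped with or without it. Psmb8 read 512.5, 530.7 and 581.2 in 7-day KO kidneys, against 262.7, 288.5 and 2727 in control kidneys. The 6 KO values lay within a narrow band, above 5 controls and far below the sixth. With all arrays the log2 fold change was 0.29 (SE 0.39, limma adjusted p = 0.999), and without 7-day control 3 it was 0.82 (SE 0.11, adjusted p = 0.000199), or 1.76-fold. Without the 4 arrays on the other side of the Aprt midpoints and 7-day control 3, Psmb8 was the 1 member still called, at a log2 fold change of 0.80 (limma adjusted p = 0.0182).

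Psmb10, which replaces Psmb7, read 619.9, 731.3 and 819.5 in 7-day KO kidneys, against 457.3, 587.9 and 1337 in control kidneys. Its log2 fold change was 0.17 (SE 0.18) with all arrays and 0.39 (SE 0.10, limma adjusted p = 0.0494) without 7-day control 3. Psmb9 read 103.7, 131.5 and 159.2 in KO kidneys, against 27.4, 90.6 and 1052 in control kidneys. Its log2 fold change was 0.22 (SE 0.44) with all arrays and 0.77 (SE 0.22, limma adjusted p = 0.0715) without the array. Psmb9 is near the floor of the array: its mean over 17 arrays was 117.8, below the filter value of 118.6, so it passed the filter through 7-day control 3. The probe sets that did not pass were H2-K1 97700_at, with a mean of 116.0, and Tap1 162278_r_at, with a mean of 72.7. H2-K1 97700_at averaged 111.4 ± 27.1 in KO and 111.1 ± 43.7 in control kidneys at 7 days (SD, n = 6 each), and Tap1 162278_r_at averaged 73.1 ± 23.4 in KO and 64.7 ± 22.6 in control kidneys.

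The standard subunits Psmb5, Psmb6 and Psmb7 had log2 fold changes of -0.01, 0.05 and -0.10 at 7 days, and 0 of 3 were called with or without 7-day control 3. Of the other genes of the pathway, 0 of 2 proteasome activator subunits, 0 of 3 chaperones and 0 of 7 other class I or class I-like heavy chains past the filter were called with all arrays. Of the 10 genes for interferon gamma signalling and class I transcription factors, 0 were called with all arrays and 2 without 7-day control 3, both higher in KO. These were Irf1, a transcription factor that binds class I promoters (log2 fold change 0.61, limma adjusted p = 0.0364), and Jak2, a kinase of the interferon gamma receptor (0.65, adjusted p = 0.048). With all arrays, Irf1 had a log2 fold change of 0.44 (limma adjusted p = 0.401) and Jak2 of 0.60 (adjusted p = 0.0574). Of the 11 other interferon-stimulated genes, 0 were called with all arrays and 2 without that array: Ifitm3, a membrane protein that limits virus entry (0.76, limma adjusted p = 0.000521), and Gbp3 (0.73, adjusted p = 0.00292). Ifng ran between 1.44 and 13.4 in KO kidneys and was not tested.

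Markers of leukocytes and macrophages were higher in KO kidneys at 7 days, in a fit that called no class I gene. With all arrays, limma called 3 of 5 leukocyte markers and 8 of 9 macrophage and monocyte markers past the filter, all higher in KO. The leukocyte genes were Cd53 (log2 fold change 1.56, limma adjusted p = 0.00122), Cd52 (1.39, adjusted p = 4.88e-05) and Laptm5 (0.71, adjusted p = 0.0416). The macrophage genes were Lyz2, the macrophage lysozyme (2.38), Cd14, the endotoxin co-receptor (1.74), Tyrobp (1.65), C1qa (1.49), C1qb (1.32), Cd68 (1.05), C1qc (0.81) and Csf1r (0.64). Itgax, the 1 gene called of 4 among B cell and dendritic cell markers, had a log2 fold change of 0.69 (limma adjusted p = 0.0275). The summed signal of the 13 macrophage and monocyte markers was 7037, 9716 and 10169 in KO kidneys (lowest, median and highest), against 3128, 3286 and 5088 in control kidneys, with no overlap. The summed leukocyte markers were 2046, 2417 and 2770 in KO kidneys, against 901.9, 1102 and 2069 in control kidneys. That upper control value was 7-day control 3, inside the KO range, although its macrophage sum was below every KO array and its Psmb8 signal above every KO array. T and NK cell markers summed to 479.1, 531.6 and 611.7 in KO kidneys, against 305.2, 476.0 and 527.1 in control kidneys. Only 1 of these 11 markers, Cd4, passed the filter, and it was not called (log2 fold change 0.38, limma adjusted p = 0.832). None of the 8 endothelial markers and none of the 8 kidney markers past the filter was called with all arrays. When 7-day control 3 was left out, all 5 leukocyte and all 9 macrophage markers were called higher, adding Lcp1 (0.86), Coro1a (0.75) and Mrc1 (0.87), of which Mrc1 passed the filter only through that array. Itgax missed the threshold at a log2 fold change of 0.65 (limma adjusted p = 0.0514), and 1 kidney marker, the salt transporter Slc12a3, was lower (-0.60, limma adjusted p = 0.0319). The part of infiltrating cells in the class I values was not tested.

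Littermate differences give the same picture pair by pair. By the brightest probe set of each of the 9 genes, the KO kidney was above its control littermate in 5 of the 6 pairs at 7 days. Pair 3 was the exception for each gene. Among their other probe sets, H2-D1 101886_f_at, Tapbp 102689_at and Tap1 162278_r_at also had 5 of 6. H2-K1 97125_f_at and H2-D1 97541_f_at had 4 of 6, and H2-K1 97700_at and Tapbp 162104_f_at had 3 of 6. The share of all probe sets with such an order is not given here. For Psmb8 the 5 differences lay between 0.53 and 0.91 on the log2(signal + 29) scale, and in pair 3 the difference was -2.30. For H2-K1 they lay between 0.48 and 0.81, with -1.61 in pair 3. With littermates as a block, 0 of the 14 probe sets were called with all arrays (7.56% over all genes). Pair 3 was singled out by the values of these same genes, so calls without it are not independent evidence of a difference. Without pair 3 and with the block, 10 of 14 were called, all higher in KO (4.65% of all probe sets were called higher and 7.89% in either direction). These were every probe set past the filter except those of Tap1 and Tap2 and 2 of Tapbp (102689_at and 162104_f_at), with Psmb9 tested only because of the array left out. Without pair 3 and without the block, 5 were called, all higher (2.55% of all probe sets higher and 3.04% in either direction). Without the 4 arrays on the other side of the Aprt midpoints, 0 were called with 7-day control 3 kept (1.5% over all genes) and 1, Psmb8, with it also left out (1.42%).

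**Figure D4:**
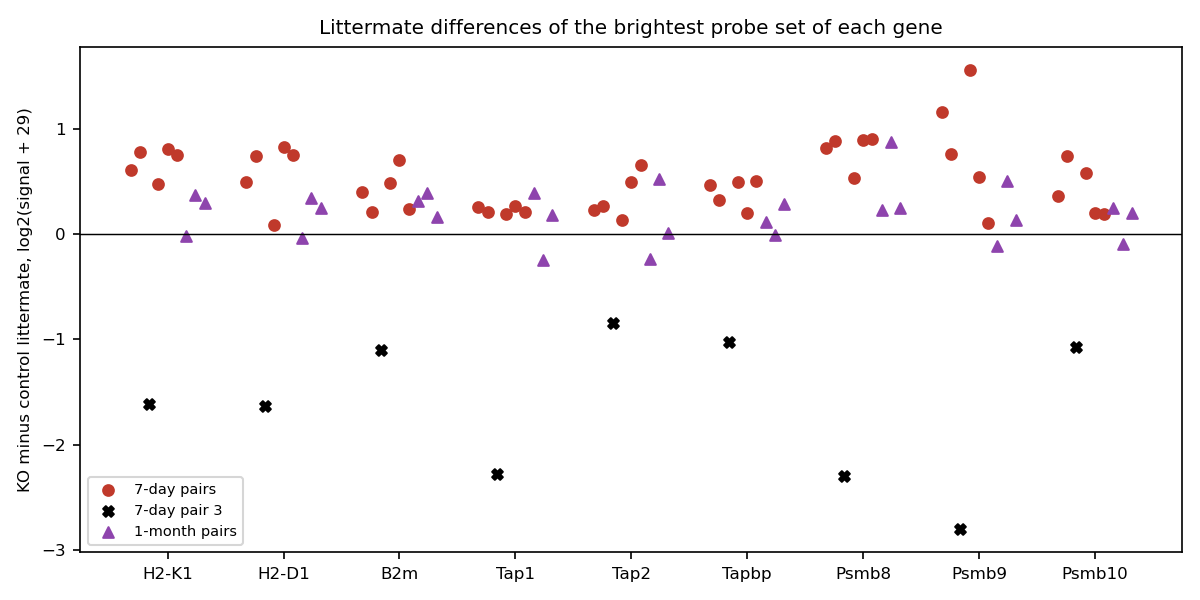
Difference between the KO kidney and its control littermate on the log2(signal + 29) scale, 1 point per pair, for the brightest probe set of each gene. Circles are 5 of the 7-day pairs and lie above 0, crosses are 7-day pair 3 and lie below 0 (for Psmb8 at -2.30), and triangles are the 3 pairs at 1 month.

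At 1 month the KO and control kidneys overlapped for every class I probe set past the filter, and no member was called. Limma called 0 of 14 probe sets (15 of 7464, or 0.201%, over all genes), 0 had an unadjusted p under 0.05, and none was separated between the groups (4.02% of all probe sets were higher on every KO array and 2.06% lower). The estimates were above 0 for 13 of 14, with a median log2 fold change of 0.17 beside 0.00 over all probe sets. Psmb8 had the largest of them. It read 306.9, 422.9 and 380.7 in the 3 KO kidneys, against 257.1, 217.8 and 316.7 in the 3 control kidneys. The lowest KO array was below the highest control array, and within each of the 3 pairs the KO kidney was higher. The log2 fold change was 0.45 (interval from -0.72 to 1.62, limma adjusted p = 0.9996). The array 7-day control 3 enters this comparison only through the estimate of the spread, and without it the interval was from 0.13 to 0.77 (limma adjusted p = 0.470, with 0 of 14 members and 0.201% of all probe sets called).

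H2-K1 (93120_f_at) read 4604, 5360 and 4547 in the 1-month KO kidneys, against 4648, 4142 and 3710 in the control kidneys, and the ranges overlapped. H2-D1 (97540_f_at) read 4045, 4310 and 3943 in KO kidneys, against 4160, 3382 and 3312 in control kidneys, again with overlap. B2m read 6729, 7838 and 8372 in KO kidneys, against 5395, 5967 and 7501 in control kidneys, and was higher in KO in 3 of 3 pairs. Their log2 fold changes were 0.22, 0.19 and 0.29, with intervals that include 0. Tap1 (103035_at) read 277.5, 191.9 and 171.9 in KO kidneys, against 204.8, 233.1 and 148.6 in control kidneys. Tap2 read 127.2, 126.4 and 106.8 in KO kidneys, against 155.3, 78.8 and 105.8 in control kidneys. Tapbp (100154_at) read 978.0, 937.9 and 1409 in KO kidneys, against 900.0, 945.2 and 1150 in control kidneys. The transporter genes thus had mixed orders within pairs by these probe sets. Of the other Tapbp probe sets, 102689_at was higher in KO in 3 of 3 pairs and 162104_f_at in 1 of 3. H2-D1 101886_f_at was also higher in KO in 3 of 3 pairs. Psmb9 read 156.9, 186.5 and 114.7 in KO kidneys, against 171.6, 122.7 and 102.0 in control kidneys. Psmb10 read 675.5, 429.5 and 455.4 in KO kidneys, against 564.7, 461.7 and 392.6 in control kidneys. Both were higher in KO in 2 of 3 pairs. Below the filter, H2-K1 97700_at read 25.3, 134.35 and 108.8 in KO kidneys, against 136.7, 210.7 and 137.7 in control kidneys. Its KO values were all below its control values. The other dim probe set, Tap1 162278_r_at, was higher in KO in 0 of 3 pairs.

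The other lists had no call at 1 month. Psmb5, Psmb6 and Psmb7 had log2 fold changes of -0.20, 0.02 and -0.08, and Irf1 of 0.40 (limma adjusted p = 0.9996). Macrophage and monocyte markers summed to 3676, 4291 and 4552 in the 3 KO kidneys (lowest, median and highest), against 2821, 2871 and 3584 in the control kidneys, without overlap, and 0 of 9 past the filter were called. The genotype effects at the 2 ages were compared directly by the interaction term, the effect at 1 month minus the effect at 7 days. Limma called 0 of 14 members (28 of 7464, or 0.375%, over all genes), and 0 had an unadjusted p under 0.05. In the fit without 7-day control 3, 0 were called (0.509% over all genes) and 1, H2-K1 (93120_f_at), had an unadjusted p under 0.05, with a log2 difference of -0.40 (adjusted p = 0.814). For Psmb8 that difference was -0.37 (interval from -0.76 to 0.03). A difference between the ages in the class I response to genotype was therefore not shown in either fit.

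With age, no class I gene was called in either genotype with all arrays. Calls appeared without 7-day control 3, which was singled out by these same genes, so they are not independent evidence of a difference. In control kidneys with all arrays, 0 of 14 members were called between 1 month and 7 days, although 38.3% of all probe sets were, and 0 had an unadjusted p under 0.05. None was separated between the ages (10.6% of all probe sets were higher on every 1-month array and 19.8% lower). Once 7-day control 3 was left out, 6 were called, all higher at 1 month (36.7% over all genes in either direction, 13.1% higher). They were H2-K1 93120_f_at, the 3 H2-D1 probe sets, B2m and Psmb9, and 5 heavy-chain probe sets were higher on every 1-month array (12.1% of all probe sets), with 0 lower on every one (22.4%). H2-K1 (93120_f_at) averaged 4167 ± 469 in control kidneys at 1 month (SD, n = 3) and 2516 ± 284 in the other 5 controls at 7 days. The log2 fold change was 0.75 (SE 0.14, limma adjusted p = 0.000319) without that array and 0.43 (SE 0.31, adjusted p = 0.300) with it. H2-D1 (97540_f_at) averaged 3618 ± 470 at 1 month (SD, n = 3) and 2221 ± 425 in the other 5 controls at 7 days, a log2 fold change of 0.76 (limma adjusted p = 0.00039) without the array. B2m averaged 6287 ± 1089 at 1 month (SD, n = 3) and 4163 ± 824 in the other 5 at 7 days, a log2 fold change of 0.57 (limma adjusted p = 0.0251) without the array. Psmb9 averaged 132.1 ± 35.7 at 1 month (SD, n = 3) and 69.4 ± 38.2 in the other 5 at 7 days, a log2 fold change of 0.80 (limma adjusted p = 0.0279) without the array, although it is among the tested probe sets only because of that array. Psmb8, Psmb10, Tap1, Tap2 and Tapbp (100154_at) had estimates of -0.17, -0.14, -0.25, 0.12 and -0.18, none called. Without the 4 arrays on the other side of the Aprt midpoints and 7-day control 3, 3 remained called: H2-K1 93120_f_at and the H2-D1 probe sets 97540_f_at and 97541_f_at (27.8% over all genes).

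**Figure D5:**
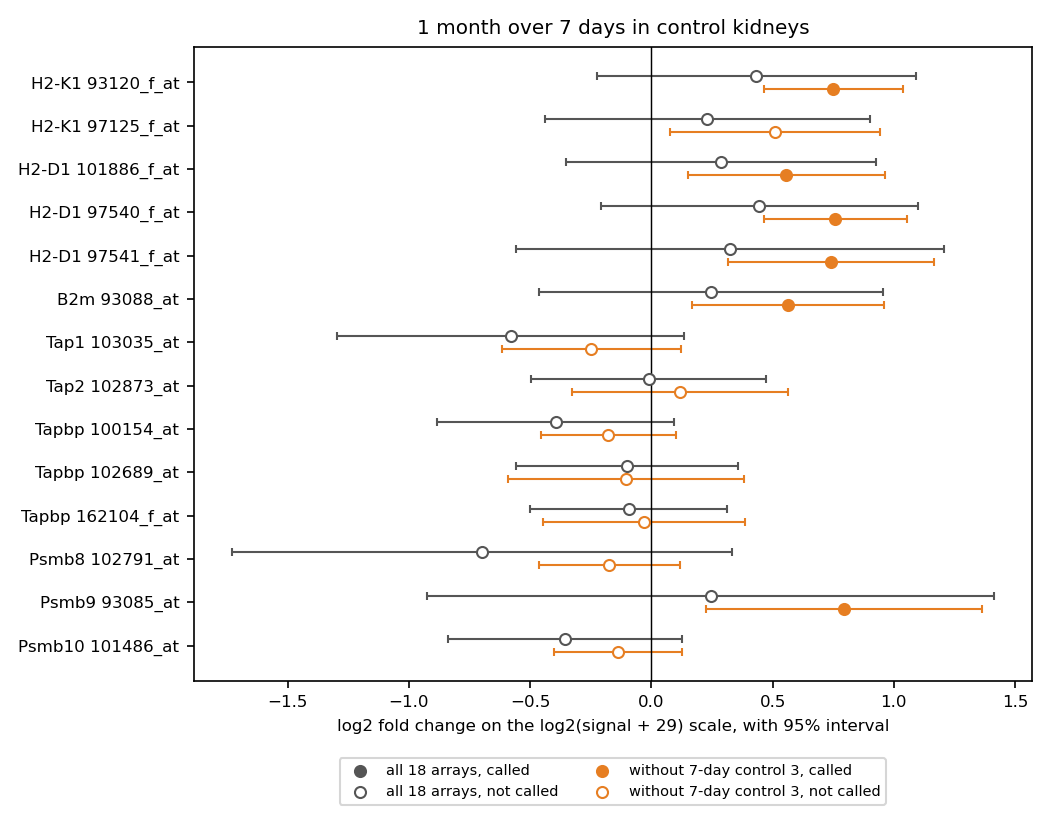
Log2 fold changes of 1 month over 7 days in control kidneys with 95% intervals from limma, for the 14 probe sets past the filter, with all 18 arrays (grey) and without 7-day control 3 (orange). The 6 filled points, all orange, are heavy-chain probe sets, B2m and Psmb9, while Tap1, Tapbp, Psmb8 and Psmb10 lie at or left of 0.

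In KO kidneys the groups compared by age hold no control array, but the fit's sex term per age is shared with the controls. Leaving out 7-day control 3 changed the estimate of the spread and not the fold changes. With all arrays 0 of 14 members were called (37.8% over all genes), and 0 had an unadjusted p under 0.05. Every 1-month KO array was above every 7-day KO array for H2-K1 (93120_f_at) and H2-D1 (97540_f_at), 2 of 14 (12.8% of all probe sets), and below every one for Psmb8, 1 of 14 (21% of all probe sets). H2-K1 (93120_f_at) averaged 4837 ± 454 at 1 month (n = 3) and 3849 ± 491 at 7 days (n = 6, both SD), a log2 fold change of 0.35 (SE 0.31 with all arrays and 0.13 without 7-day control 3). Psmb8 averaged 370.2 ± 58.7 at 1 month and 534.6 ± 24.6 at 7 days, a log2 fold change of -0.54 (SE 0.49 with all arrays and 0.13 without). With the smaller spread, 5 members were called (38.5% of all probe sets in either direction, 14.2% higher and 24.3% lower): H2-D1 97540_f_at (0.42, limma adjusted p = 0.0209) and H2-K1 93120_f_at (0.35, adjusted p = 0.0453) were higher at 1 month, and Psmb8 (-0.54, adjusted p = 0.00381), Psmb10 (-0.41, adjusted p = 0.0128) and Tapbp 100154_at (-0.43, adjusted p = 0.0134) were lower. B2m, H2-K1 97125_f_at and the other H2-D1 probe sets were called in neither fit. The groups of the KO comparison share no array with those of the control comparison. Both comparisons use the same sex terms and the 1 estimate of the spread, so they are not independent.

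Other genes of the pathway were called with age in both genotypes, where over all genes 38.3% were called in control and 37.8% in KO kidneys. Psmb5, a standard catalytic subunit, rose in control kidneys (log2 fold change 0.55, limma adjusted p = 0.00317) and in KO kidneys (0.36, adjusted p = 0.0411), while Psmb6 (0.12 in control and 0.09 in KO kidneys) and Psmb7 (0.28 and 0.31) did not pass. Of the interferon gamma and transcription factor list, 1 of 10 rose and 3 fell in control kidneys, and 0 rose and 4 fell in KO kidneys, so 4 of 10 were called in each, a share near that over all genes. Socs1, an inhibitor of interferon signalling, fell in controls (-1.93, limma adjusted p = 8.31e-07), as did Irf1 (-0.81, adjusted p = 0.0111) and the receptor subunit Ifngr2 (-0.72, adjusted p = 0.0167), while Rfxank, a subunit of the X box complex, rose (0.39, adjusted p = 0.0144). In KO kidneys the falls with the largest estimates were Socs1 (-1.70), Ifngr2 (-0.95) and Irf1 (-0.85). Cd1d1, which presents lipids, fell in control (-1.31, limma adjusted p = 0.000169) and KO kidneys (-0.66, adjusted p = 0.0277). In controls the activator subunit Psme1 fell (-0.41, limma adjusted p = 0.00841) and the chaperone Canx rose (0.44, adjusted p = 0.0335). Of the 11 other interferon-stimulated genes, Rsad2 (-0.85) and Ifitm3 (-0.60) fell in controls and Ifitm3 (-0.73) in KO kidneys. Without 7-day control 3, Canx missed the threshold in controls at 0.42 (limma adjusted p = 0.0549), and Ifit3 (0.97), Gbp3 (0.68) and Iigp1 (1.05) were called higher at 1 month, of which Iigp1 passed the filter only through that array.

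Cell type markers also moved with age. In control kidneys the endothelial markers Cdh5 (-1.48), Tie1 (-1.28) and Emcn (-0.87) fell furthest among the 5 of 8 that fell. The kidney markers Umod (1.36), Slc34a1 (0.87) and Slc12a3 (0.83) rose furthest among the 6 of 8 that rose. The leukocyte markers Cd53 (-1.14) and Coro1a (-0.84) and the macrophage markers Mrc1 (-1.06) and Tyrobp (-0.997) fell, and Csf1r rose (0.48). In KO kidneys 8 of 9 macrophage markers fell, led by Tyrobp (-1.74), Lyz2 (-1.58) and Cd14 (-1.48), and 3 of 5 leukocyte markers fell, Cd53 (-1.37), Cd52 (-1.10) and Laptm5 (-0.74). Cdh5 (-0.99), Tie1 (-0.73) and Tek (-0.52) fell in KO kidneys, and all 8 kidney markers rose, led by Slc12a3 (1.72), Umod (1.33) and Slc34a1 (1.14). The part of these shifts in the age differences of the class I genes was not tested.

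The genes whose pattern over the arrays was most like the members were named by a fixed rule, as a description over arrays that share groups and scaling. Over 18 arrays, the mean scaled log2 signal of the 9 brightest member probe sets correlated best with Gbp3 (Pearson r = 0.932), Iigp1 (0.909), H2-K2 (0.899), and the class II genes H2-Ab1 (0.896) and H2-Eb1 (0.885). After removing group means and sex, the highest over 18 arrays were Iigp1 (0.983), H2-K2 (0.972), Igtp (0.965), H2-Aa (0.964) and Irgm2 (0.959). Both lists include 7-day control 3, and Iigp1 and Igtp passed the filter only through that array. Whether these genes follow the members within groups apart from that array was not tested. The name of the H2-K2 probe set ends in _f_at, so its signal cannot be assigned to H2-K2 alone. For log2 signal without 7-day control 3, over 17 arrays, the highest were Cd74 (0.911), Cx3cl1 (0.907), Mmp12 (0.889), Ctss (0.880) and H2-Ab1 (0.872). Group and sex differences were not removed there. Among the members, the correlation of each gene's residuals with the mean of the other members lay between 0.658 (Tap2) and 0.977 (H2-K1) over 18 arrays. It lay between -0.479 (B2m) and 0.797 (H2-K1) without 7-day control 3, so the tight agreement of the 9 genes within groups rests on that array.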

How the data were processed

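Total kidney RNA from 18 mice was labelled with biotin and hybridised to 1 array each, per the labels. The authors deposited 1 intensity (a linear signal) per array for each of 12488 probe sets. The submitters' processing notes name GCOS and MAS5, without versions, and no scan batch or scaling target was found in the labels. The trimmed mean of every deposited column was near 500.3, so each array had been scaled to 1 level, and no further normalization was applied. Arrays have no read depth: their number, 3 to 6 a group, limits the precision, and the labels name separate mice.

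The members and gene lists were chosen with earlier results of these data known. Symbols came from the platform annotation (10833 probe sets with 1 symbol, 396 with several). The fit was limma 3.58.1 in R 4.3.3 (lmFit, eBayes with trend) on log2(signal + 29), with the 20th percentile of the signals, rounded to 29, as pseudocount, so a fold change understates the change of dim genes. It used all 18 arrays, a mean per group and a sex term per age, with 12 residual degrees of freedom. Control probe sets (66) and those with a mean under the 40th percentile, 118.6, were left out, which kept 7464. The p-values are two-sided and adjusted (Benjamini-Hochberg) over these 7464. Named genes are the members, list genes called in a genotype comparison, the 3 largest rises and falls of each list with age, Psmb5, Psmb6, Psmb7, Irf1, Ifng and the 5 most alike in pattern. The script was tested on simulated data.

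The labels name each mouse's littermate, which pairs the samples: the residuals of littermates correlated at 0.235 to 0.683, and for 13 of 18 arrays the closest array was the littermate's. The alternatives were 31 other settings, 4 of them chosen after seeing the data. These left out pair 3 (with and without the replicate block), pair 4, or 7-day control 3 with the arrays beyond the Aprt midpoints.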

Additional observations from a re-analysis of the deposited data

Results flagged for a closer look

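Signals of the 14 probe sets past the filter were checked in each group of 6 arrays for a highest or lowest array far from the rest, by the gap to its nearest neighbour over the group's range (limit 0.625). Of 28 such groups 15 passed, where chance gives about 1 in 20. In 11 of the 15 the array was 7-day control 3, as the highest of its group: the gap was 0.962 of the range for Psmb8, 0.942 for Tap1, 0.921 for Psmb9, 0.897 for Tapbp (100154_at), 0.894 for H2-K1 (93120_f_at) and 0.866 for H2-K1 (97125_f_at). It was 0.858 for H2-D1 (101886_f_at), 0.841 for H2-D1 (97541_f_at), 0.813 for H2-D1 (97540_f_at), 0.813 for Psmb10 and 0.811 for B2m. The 11 values come from 1 mouse and are not separate observations, and Psmb9 passed the filter only through this array.

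The other 4 were in 7-day KO kidneys. KO 3, the littermate of 7-day control 3, was the lowest for H2-K1 (93120_f_at), with a gap of 0.807 of the range, and for H2-D1 (101886_f_at), with 0.752. The array labelled KO 4 was the highest for Tapbp (100154_at), with 0.628, and KO 6 the highest for Psmb8, with 0.657. For Psmb8 the whole KO range ran only between 512.5 and 581.2.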

How the results depend on the processing

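Among the 31 other settings, no member was called between Aprt KO and control at 1 month or in the interaction. At 7 days members were called in 4 settings: 4 without 7-day control 3, 5 without littermate pair 3 and 10 without pair 3 with the replicate block. The fourth setting, without 7-day control 3 and the arrays on the other side of the Aprt midpoints, called 1. Between 1 month and 7 days in controls these settings called 6, 6, 7 and 3, and in KO kidneys the first 3 called 5, 4 and 8. Over all probe sets, the first setting called 36.7% in controls and 38.5% in KO kidneys, and the fourth called 27.8% in controls. Shares with age for the settings without pair 3 are not given here, so those counts are not read as a result about the members. All other settings called 0, including the replicate block with all arrays, other pseudocounts, quantile normalization and no filter. Leaving out each array in turn gave 0 to 4, 0 to 6 and 0 to 5 calls, each maximum without 7-day control 3. Of 2145 single-gene values, 2086 kept their direction and side of the threshold or stayed uncalled, 59 gained a call and none reversed a call; the causes were not tested.

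Over all probe sets, 204 were called at 7 days: 564 with the replicate block, 589 with it and without pair 3 (157 to 233 leaving out 1 array). The count was 112 without the arrays on the other side of the Aprt midpoints and 106 without these and 7-day control 3. At 1 month 15 were called: 91 and 93 with the block, 3 and 2 without those arrays, 31 and 6 with pseudocounts of 1 and 100, 8 without the filter, and 1 to 22 leaving out 1 array. The interaction had 28: 102 and 140 with the block, 6 and 4 without those arrays, 43 without pair 3, and 14 to 38 leaving out 1 array. Of the age counts, the 2855 in controls ran between 1711 and 2901 leaving out 1 array, and the 2824 in KO kidneys between 1628 and 2873, with 1426 and 1397 without those arrays. Dim probe sets such as Psmb9 and Tap2, near the filter value, are measured least precisely.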

Other observations

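Of 10 class I and class I-like heavy chains outside the 9 genes, 5 were above every other 7-day control on 7-day control 3, and 2 were more than 2-fold their mean. H2-Q4, a class Ib heavy chain, read 2858, against 765.6 to 1348 on the other 5 controls at 7 days. H2-M3, which presents formylated peptides, read 383.6, against 50.2 to 118.2. H2-Q10, a liver-secreted class I molecule, read 181.3, inside the range of the other 5 (140.4 to 233.6). H2-M2 read 95.1, below all of them (152.3 to 218.2). The proteasome activator subunit Psme1 read 2062, against 1515 to 1867, while Psme3 read 456.4, against 771.7 to 1201. Interferon-stimulated genes that did not pass the filter included Ifi47 at 485.2, against 9.51 to 23.2, Cxcl9 at 77.1, against 3.65 to 16.6, and Ifit1 at 82.9, against 3.29 to 33.3. Irf7 read 197.5, against 110.6 to 196.2.

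Littermate pair 4 at 7 days had a compressed bright end, with highest signals of 10167 in the KO and 10767 in the control, against 25718 to 51453 on the other 16 arrays, and leaving it out gave 0 member calls in each comparison.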
